A study of Pinus pinaster with 14 samples.

Results

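Vascular tissue was compared with the ground tissue around it in the shoot organs of maritime pine (Pinus pinaster, a Mediterranean conifer). The comparison rests on 6 of the 14 libraries of the series, chosen by their labels: young needle vascular, cotyledon vascular and hypocotyl vascular tissue against young needle mesophyll, cotyledon mesophyll and hypocotyl cortex. Each organ gave 1 library of each kind, so the 3 vascular and 3 ground tissue libraries form 3 pairs. All came from untreated seedlings of the Oria provenance, grown in soil in a culture chamber and harvested 1 month after the shoots emerged. Tissues were cut from frozen sections by laser microdissection, and their RNA was amplified as cDNA before pyrosequencing. No tissue has a second library, and the labels do not say which seedlings gave each one. The p-values below rest on the spread between organs, most of it pooled over transcripts. The main fit has 2 residual degrees of freedom per transcript against 56.5 from the pool, so a transcript's own spread counts for little. The p-values may also be too small where libraries share seedlings.

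The vascular strand of a leaf or stem holds xylem, which carries water and is stiffened by lignin, and phloem, which carries sugars and amino acids, together with parenchyma and dividing cambial cells. Needle and cotyledon mesophyll is the main photosynthetic tissue of a pine seedling, whereas the hypocotyl cortex is the outer ground tissue of the young stem. In conifer needles a sheath and transfusion tissue lie between the vascular strand and the mesophyll. The deposited table gives transcript identifiers, and 0 of them are paired with a gene name. The tissue labels were therefore not checked against marker genes, no pathway list was read, and 4 transcripts are named, 2 in each direction, by their identifiers.

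Depth and composition differed between the 6 libraries. Whole reads recovered from the deposited values numbered from 519134 in hypocotyl cortex to 883851 in cotyledon mesophyll. A single read was worth 0.766 normalised units in young needle vascular tissue and 3.76 in hypocotyl cortex, so low values are coarsest in the cortex. The 10 most abundant transcripts held 36.7% of hypocotyl cortex reads but 4.99% of those of young needle vascular tissue (95% Wilson half-width at most 0.131 percentage points for every share of reads given here, counting error only). At 510000 reads drawn from each library, transcripts with reads numbered 11286 in the vascular and 8066 in the mesophyll library of young needles, and 15117 in the vascular and 13040 in the cortex library of the hypocotyl. In cotyledons the order was the other way, with 9108 in vascular tissue and 10675 in mesophyll.

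The hypocotyl vascular library may carry reads of the young needle vascular library. All 878 transcripts with at least 200 reads in young needle vascular tissue also had reads in hypocotyl vascular tissue, and at their 5th percentile the second library held 0.202 of the first one's reads. This floor would make up 22.6% of hypocotyl vascular reads. Of the 506 transcripts with at least 200 reads in hypocotyl vascular tissue, 2 lacked reads in young needle vascular tissue and 6 in cotyledon vascular tissue, with 5th percentiles of 0.0875 and 0.0904. With a ground tissue library as the receiver, the 5th percentile was 0 for every other library of the 6. Carried reads and likeness of vascular tissues cannot be told apart in these ratios, so the main results are also given without the hypocotyl, with the young needle floor removed, and with floors among all 3 vascular libraries removed. The last 2 settings also rescale the libraries to the reads that are left.

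Vascular and ground tissue of shoot organs differed in 92 of 7293 transcripts tested, with 49 higher and 43 lower in vascular tissue (limma on log2(value + 5) with organ as a term, Benjamini-Hochberg adjusted p under 0.05). These are 1.26% of the transcripts tested, 0.672% in the higher and 0.59% in the lower direction. The median absolute log2 fold change was 5.31 for the transcripts called higher and 5.01 for those called lower. The smallest absolute changes were 3.93 and 3.13. The median SE over all transcripts tested was 1.26, so mainly large differences could pass, and these sizes follow in part from the threshold. On the deposited scaling the median log2 fold change of all transcripts tested was 0.42, and the medians of single organs were 0.85 in young needles, 0.72 in the hypocotyl and -0.02 in cotyledons. The groups of 3 did not overlap for 47 of the 49 and 40 of the 43, and for 18.8% of all transcripts tested (12.5% with vascular tissue higher and 6.29% lower). In bulk tissue, more cells of a type and more RNA of a transcript per cell cannot be told apart.

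**Figure D1:**
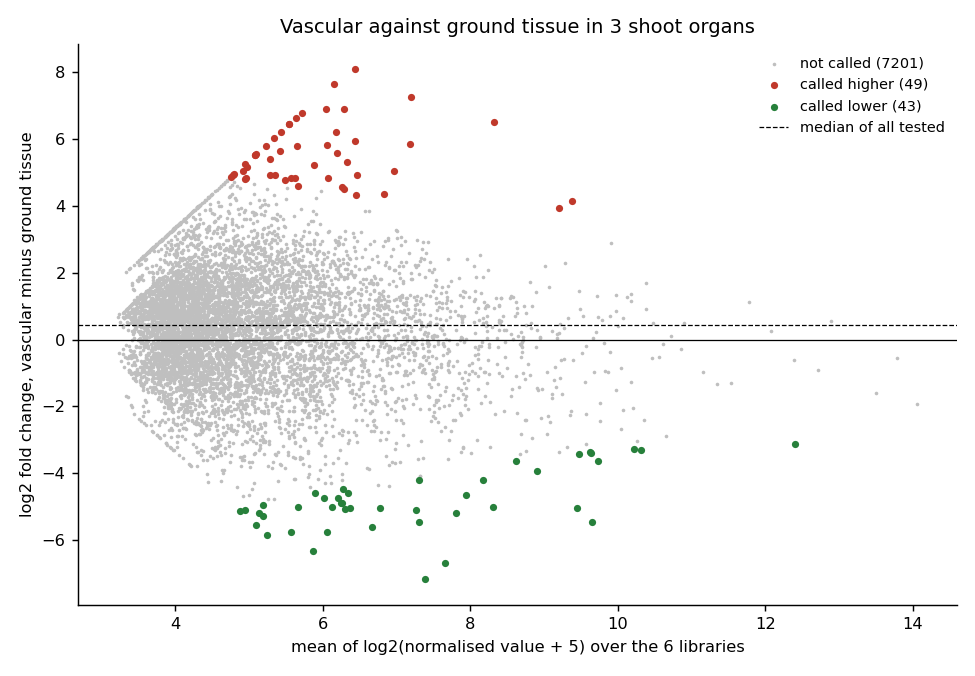
Log2 fold change of vascular over ground tissue (y axis) against the mean of log2(normalised value + 5) over the 6 libraries (x axis), 1 point per transcript. The 49 transcripts called higher (red) and 43 called lower (green) lie at 3.13 or more from 0, and the dashed line marks the median of all 7293, at 0.42.

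Of the 3 organs, leaving out the hypocotyl lowered the number of calls most. With the filter remade on the 4 needle and cotyledon libraries, 4 of 3708 transcripts were called (0.108%; 1 higher, 0.027%, and 3 lower, 0.0809%), but 54 of the 92 were then not tested. With the same 7293 transcripts tested, limma without the hypocotyl called 9, all of them among the 92, with 5 higher and 4 lower, and edgeR's quasi-likelihood test on the recovered reads called 3. On the same 7293 transcripts, 79 were called without young needles, of which 59 were among the 92, and 70 without cotyledons, of which 46 were. In each limma fit with 1 organ left out, the prior degrees of freedom were infinite. Their SEs and p-values therefore hold pooled variance only, and calls kept or lost there do not measure a transcript's own consistency. Removal of the young needle floor gave 110 calls among 6792 (1.62%), 54 higher (0.795%) and 56 lower (0.824%). These included 45 of the 49 and all 43 of the transcripts called lower. With floors among all 3 vascular libraries removed, 68 were called, including 29 of the 49 and 38 of the 43.

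How many calls fell in each direction changed with the scaling between libraries, and also with other settings under the deposited scaling. Scaling to the library total gave 37 higher and 6 lower, quantile normalisation 89 and 41, and equal medians of the tested transcripts 30 and 78. After the 10 most abundant transcripts of each library were left out there were 25 and 8. The median log2 fold change of all transcripts tested was 0.86, 0.42, -0.15 and 0.57 in the same order, against 0.42 in the main fit. Under quantile normalisation the split changed while this median stayed. The prior degrees of freedom were infinite under quantile normalisation and under equal medians, so the SEs of those fits hold pooled variance only. Of the 92, 14 were not tested once the most abundant transcripts were left out. With the deposited scaling kept, the calls were 24 higher and 8 lower without the organ term and 21 and 10 with 1 added. They were 55 and 27 with a constant prior variance and 59 and 23 in the fit of 10 libraries. With 25 added they were 43 and 52, and with no filter 52 and 45.

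Transcript unigene29570 had the largest fold change towards vascular tissue. Its normalised value was 884 in young needle vascular, 2800 in cotyledon vascular and 1155 in hypocotyl vascular tissue, against no reads in young needle mesophyll or hypocotyl cortex and 0.842, a single read, in cotyledon mesophyll. All 3 vascular libraries were thus far above all 3 of ground tissue. The vascular mean was 1613 ± 1036 (SD, n = 3) and the ratio of the group means was 5751 (95% interval for the single read 1032 to 227143). On the log2(value + 5) scale vascular tissue was higher by 8.08 ± 1.18 SE (limma adjusted p = 3.49e-05), with differences of 7.47 in young needles, 8.91 in cotyledons and 7.86 in the hypocotyl. It was among the 9 transcripts called without the hypocotyl (8.19 ± 1.70 SE, limma adjusted p = 0.00534). Its 1035 reads in hypocotyl vascular tissue compare with 233 at the young needle floor.

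Outside the shoot organs unigene29570 did not keep to vascular tissue. Root vascular tissue stood at 16602 and root cortex at 6681, both above every shoot library. Developing root vascular tissue, developing root cortex and the root meristem had no reads. The apical meristem held 138, the pith 2.88 and emerging needles 1.42.

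Among the 6 libraries of the comparison, transcript unigene17168 had reads in the 3 vascular ones alone. Its value was 313 in young needle vascular, 992 in cotyledon vascular and 3258 in hypocotyl vascular tissue, and none of the 3 ground tissue libraries had a read. The vascular mean of 1521 ± 1542 (SD, n = 3) was at least 251-fold higher than the mean of ground tissue, with 3 reads per library as the limit. The fitted fold change was 7.66 ± 1.21 SE (limma adjusted p = 5.85e-05). Without the hypocotyl the call was lost, at 6.81 ± 1.80 SE (limma adjusted p = 0.0935). That SE is pooled over transcripts, and the differences kept were 5.99 in young needles and 7.64 in cotyledons. Its 408 reads in young needle vascular tissue compare with 255 at the floor of hypocotyl vascular reads. In the root it reached 39.7 in vascular tissue and 20.7 in cortex, and the developing root, both meristems, the pith and emerging needles had no reads.

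Transcript unigene18376 had the largest fold change towards ground tissue. It stood at 1218 in young needle mesophyll, 2759 in cotyledon mesophyll and 2386 in hypocotyl cortex, against 10.7, 13.1 and 4.47 in the vascular tissue of the same organs. The values were even among the 3 ground tissues, and low in every vascular library, where 33 reads were counted in all. Group means were 2121 ± 804 (SD, n = 3) in ground and 9.45 ± 4.48 (SD, n = 3) in vascular tissue, a ratio of 225 (95% interval for the 33 reads 160 to 326). The fold change on the log2 scale was -7.17 ± 1.09 SE (limma adjusted p = 4.28e-05), and -6.77 ± 1.55 SE without the hypocotyl on the same transcripts (limma adjusted p = 0.0187; the call was lost with edgeR, adjusted p = 0.258).

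Root tissues held little of unigene18376: root cortex had 7 reads (20.7), and root vascular tissue, both developing root libraries and the root meristem had none. Its pith value of 715 rests on 744 reads, against 763 at the floor of cotyledon mesophyll reads in that library. All 741 transcripts with at least 200 reads in cotyledon mesophyll had reads in pith, with a 5th percentile of 0.233.

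Transcript isotig04217 was dominated by the hypocotyl cortex. Hypocotyl cortex stood at 52460, whereas young needle mesophyll had 498 and cotyledon mesophyll 327. Vascular tissue held 27.6 in young needles, 2.63 in cotyledons and 26.8 in the hypocotyl. The groups did not overlap, but the ground tissue mean of 17761 ± 30050 (SD, n = 3) was set by the cortex. The fold change on the log2 scale was -6.69 ± 1.13 SE (limma adjusted p = 0.000218), with differences of -3.95 in young needles, -5.44 in cotyledons and -10.69 in the hypocotyl. The call was lost without the hypocotyl, at -4.70 ± 1.73 SE (limma adjusted p = 0.475).

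Root cortex and root vascular tissue were closer for isotig04217, at 6021 and 4161, and the developing root had 3.12 in cortex and 6.21 in vascular tissue. The apical meristem value of 2528 rests on 1902 reads, against 1377 at the floor of hypocotyl cortex reads there. All 237 transcripts with at least 200 reads in hypocotyl cortex also had reads in the apical meristem, with a 5th percentile of 0.0987.

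**Figure D2:**
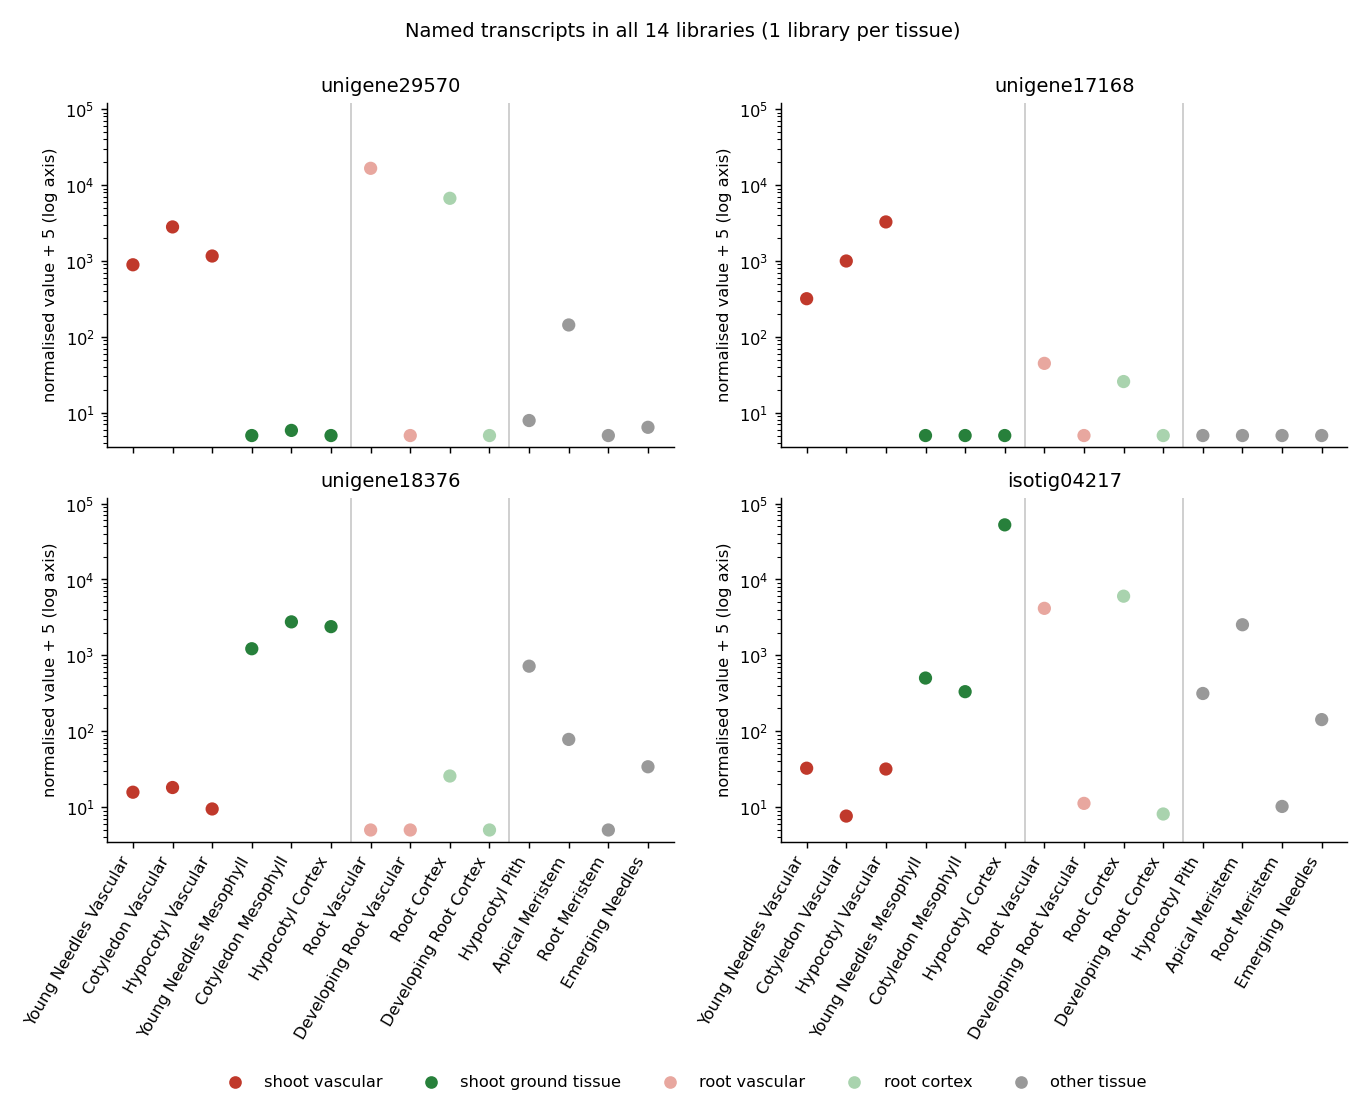
Normalised value + 5 on a log axis (y) of the 4 named transcripts in each of the 14 libraries (x), 1 point per library. The upper 2 transcripts are high in the 3 shoot vascular libraries (884 to 2800 and 313 to 3258) and at or near 0 reads in shoot ground tissue, and the lower 2 show the opposite order.

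Of the 49 transcripts called higher in vascular tissue, 15 (30.6%) had no reads in any of the 3 ground tissue libraries, against 2.28% of all 7293 tested. A further 15 (30.6%, all tested 12.9%) had none in 2 of them, 12 (24.5%, all tested 31.5%) had none in 1, and 7 (14.3%, all tested 53.3%) had reads in all 3. The median of their group means was 519 in vascular and 2.51 in ground tissue. In every one of the 3 organs all 49 were higher by at least 2-fold, 45 by at least 4-fold and 40 by at least 8-fold. Their highest value was in cotyledon vascular tissue for 23, in hypocotyl vascular tissue for 19 and in young needle vascular tissue for 7. The median difference on the log2 scale was 6.0 in cotyledons, 5.56 in the hypocotyl and 5.29 in young needles. No test was made of these summaries, since the same contrast chose the transcripts.

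For the 43 transcripts called lower, the median of the group means was 2090 in ground and 15.2 in vascular tissue. Reads were found in all 3 vascular libraries for 32 of them (74.4%, all tested 69.4%), and 3 had none in any (6.98%, all tested 0.37%). Those 3 could pass the filter only through ground tissue. Of the 43, 39 were lower by at least 2-fold in each of the 3 organs, 33 by at least 4-fold and 18 by at least 8-fold. Cotyledons had the smallest median difference, -3.15, against -5.13 in young needles and -4.46 in the hypocotyl, and the smallest single difference was -0.25, in cotyledons. The highest value was in young needle mesophyll for 17, in hypocotyl cortex for 17 and in cotyledon mesophyll for 9.

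Reads held by these transcripts show how much of each library they made up. The 49 held 2.44% of the reads of young needle vascular tissue, 5.76% in cotyledon vascular and 8.26% in hypocotyl vascular tissue, against 0.0398%, 0.0856% and 0.0482% in the ground tissue of the same organs. The 43 held 9.18% in young needle mesophyll, 5.69% in cotyledon mesophyll and 19.0% in hypocotyl cortex, against 0.381%, 0.879% and 1.28% in vascular tissue. In libraries that took no part in the calls, the 49 held 3.36% of pith, 2.40% of root vascular and 0.881% of root cortex reads, and the 43 held 3.68%, 0.479% and 1.44%. Few transcripts made up these shares: of the reads of the 49, 3 transcripts held 81% in pith, where the median value of the 49 was 4.81, and 2 held 56.3% in root vascular tissue, the first of them unigene29570. Of the reads of the 43 in root cortex, 2 transcripts held 74.9%. Developing root libraries held 0.399% (vascular) and 0.203% (cortex) for the 49, and under 0.1% in each for the 43. The pith lies inside the vascular ring of the hypocotyl, and whether its reads include some of cotyledon mesophyll, with the 5th percentile given above, was not tested.

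**Figure D3:**
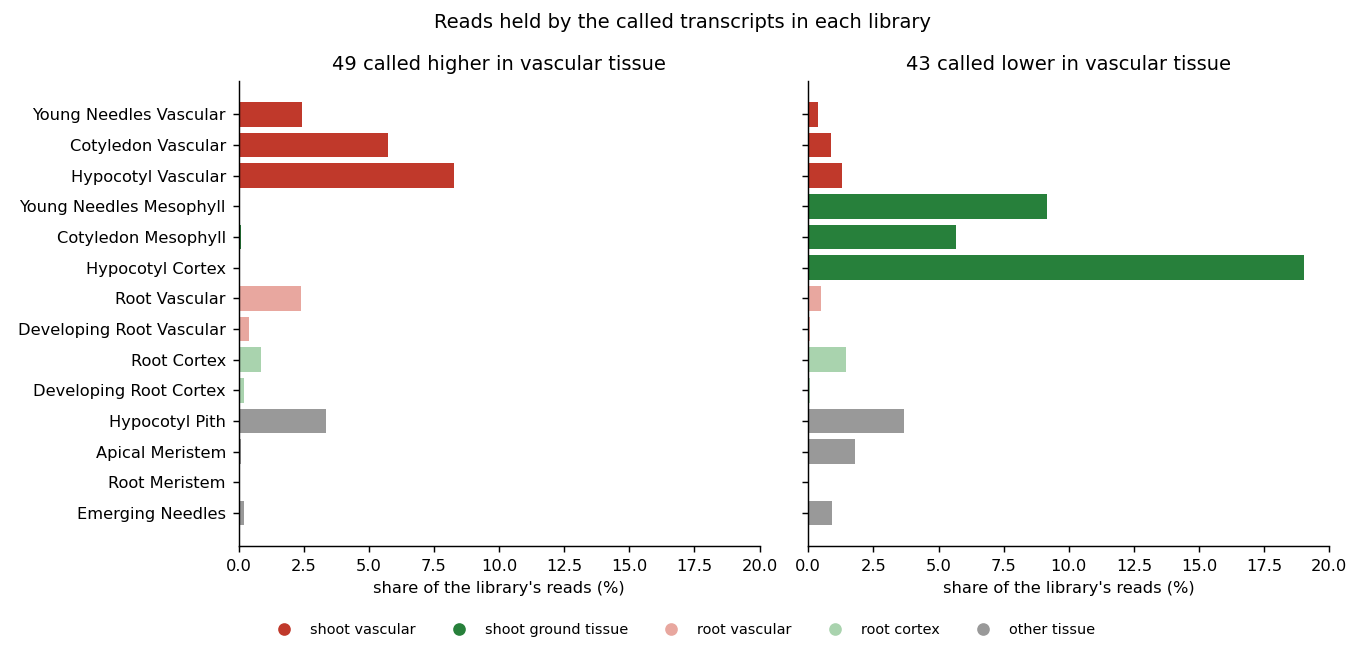
Share of each library's reads in percent (x axis) held by the 49 transcripts called higher (left) and the 43 called lower (right) in shoot vascular tissue, 1 bar per library. The chosen groups stand out by construction (up to 8.26% and 19.0%), while among libraries not used for the calls root vascular tissue and pith hold 2.40% and 3.36% of reads in the left panel.

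Transcripts that differed in size by 4-fold or more were counted within single organs and in all 3 together. A shared transcript counts in each organ, so the shared counts can only be the smaller ones. In young needles 2791 of the 7293 transcripts were 4-fold or more higher in vascular tissue (38.3%) and 1390 lower (19.1%). In the hypocotyl 1708 were higher (23.4%) and 599 lower (8.21%). Cotyledons went the other way, with 1109 higher (15.2%) and 1780 lower (24.4%). All 3 organs shared a 4-fold difference for 330 transcripts higher in vascular tissue (4.52%) and 120 lower (1.65%), and 1154 transcripts were 4-fold higher in one organ and 4-fold lower in another. At 2-fold the shared counts were 731 (10%) and 348 (4.77%), and 525 and 357 after the young needle floor was removed. With floors among all 3 vascular libraries removed they were 467 and 367, and with scaling to the library total 1089 and 179. These counts follow a rule of size with no test.

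Differences between vascular and ground tissue were not alike between the 2 leaf organs. Across 7293 transcripts the Spearman correlation of the log2 differences was 0.056 between young needles and cotyledons, 0.129 between cotyledons and hypocotyl, and 0.392 between young needles and hypocotyl. With the young needle floor removed the last became 0.249. Between young needles and cotyledons, 590 transcripts were 4-fold higher in vascular tissue of both and 379 lower in both, while 889 were 4-fold or more apart in opposite directions. Since transcripts are no replicates, the correlations describe these 6 libraries.

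**Figure D4:**
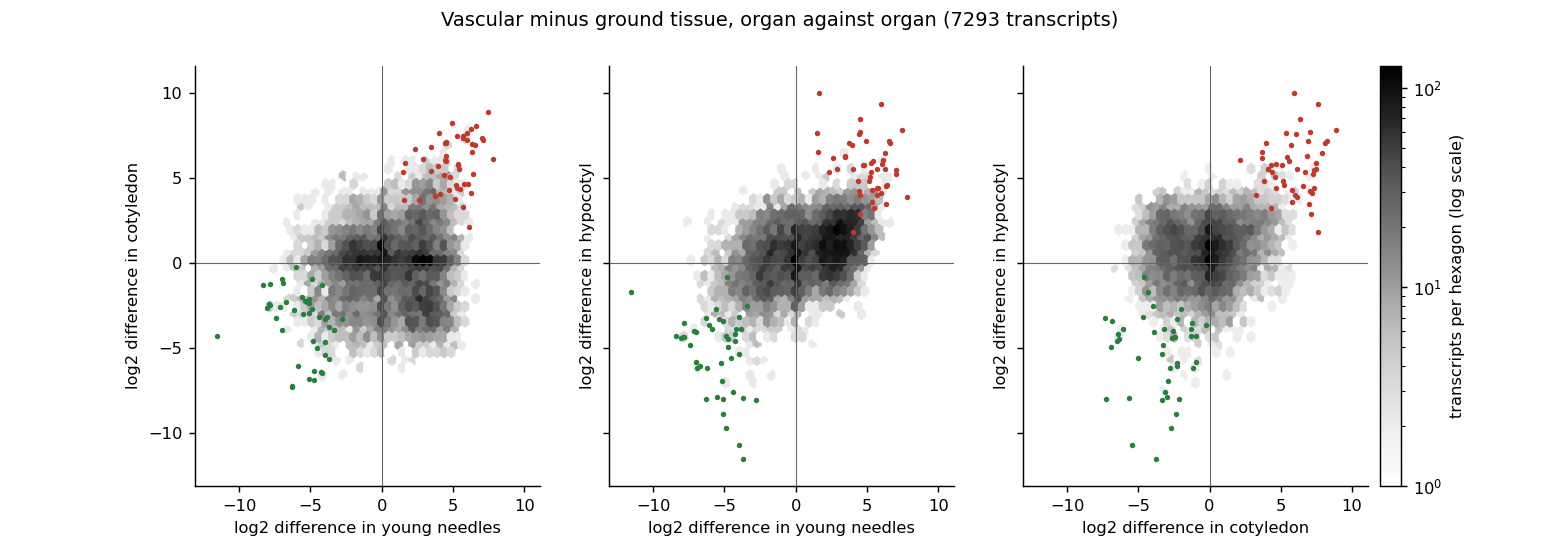
Difference in log2(value + 5), vascular minus ground tissue, in one organ against another for 7293 transcripts; darker hexagons hold more transcripts, and red and green points are those called higher and lower. The cloud of young needles against cotyledons (left, Spearman 0.056) fills all quadrants, and that of young needles against hypocotyl (middle, 0.392) leans upward.

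Presence and absence were also read from the counts of reads, with no test. Of the 23493 transcripts in the table, 177 (0.753%) had at least 10 reads in every vascular and none in any ground tissue library of the shoot, and 8 (0.0341%) showed the reverse. After the young needle floor was removed there were 95 (0.404%) and 8. In needles and cotyledons alone the counts were 372 (1.58%) and 202 (0.86%). By organ they were 4092 (17.4%) and 1328 (5.65%) in young needles, 2966 (12.6%) and 1439 (6.13%) in the hypocotyl, and 1734 (7.38%) and 3111 (13.2%) in cotyledons, in the same direction, within each organ, as the numbers of transcripts detected at equal depth. The part of library complexity in these counts was not tested.

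Whole profiles of the same tissue were not uniformly more alike than those of the same organ. Over the 7293 transcripts, vascular libraries correlated at 0.661 (young needles with hypocotyl, 0.288 with the floor removed), 0.401 (cotyledons with hypocotyl) and 0.231 (young needles with cotyledons). Ground tissue libraries correlated at 0.265 to 0.315. The 2 tissues of an organ stood at 0.0503 in young needles, 0.244 in cotyledons and 0.314 in the hypocotyl, the last being 0.400 with the floor removed. Spearman correlations across transcripts are given as descriptions.

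Root organs took no part in the calls and show whether the same transcripts differ there. Of the 49 called higher in shoot vascular tissue, 34 (69.4%) were higher in vascular tissue on the mean of root and developing root, 9 were lower and 6 had no reads in any of the 4 root libraries. Among all transcripts tested, 47.6% were higher. Of the 43 called lower, 25 (58.1%) were lower, 14 higher and 4 without reads, against 47.7% lower among all tested. Where the developing root has no reads, the sign of this mean is that of the root pair alone. In both root organs 15 of the 49 were higher (30.6%, all tested 21.6%) and 4 lower. Among the 43, 10 were lower in both (23.3%, all tested 20.9%) and 5 higher. A 2-fold difference in the same direction in root was found for 19 of the 49 (38.8%, all tested 26.8%) and for 14 of the 43 (32.6%, all tested 27.0%). With floors among the 3 vascular libraries removed, 20 of 29 were higher on the mean of root and developing root (all tested 47.7%). By that mean 24 of 39 were lower (all tested 48.0%). On the 9 calls made without the hypocotyl, 2 of 5 were higher and 3 of 4 lower by the same mean.

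Median differences of these transcripts in root organs were near 0. The median log2 difference of the 49 was 0.65 in root and 0 in developing root, where 23 of them (46.9%, all tested 11.0%) had no reads in either tissue. For the 43 the medians were -0.63 and 0, and 17 had no reads in the developing root. The transcripts were chosen for a large difference in the shoot, so a smaller one elsewhere follows in part from the choice. The test of the difference itself, an interaction of tissue with shoot or root in the 10 vascular and ground tissue libraries, called 0 of 11163 transcripts (0%, limma). The lowest adjusted p was 0.377 in limma, and 755 had an unadjusted p under 0.05. None of the 92 passed it in that fit, though all 92 had the larger difference in the shoot, for which they were chosen. Shoot minus root was 7.42 ± 1.56 SE for unigene29570 and 7.26 ± 1.71 SE for unigene17168. It was -5.99 ± 1.68 SE for unigene18376 and -6.66 ± 1.82 SE for isotig04217. With 3 shoot and 2 root pairs, the lack of calls does not show that shoot and root are alike. In all 5 organs, 7 of the 49 and 4 of the 43 differed at least 2-fold in their own direction, against 56 higher (0.502%) and 16 lower (0.143%) of the 11163 transcripts of the 10-library fit. The choice of members used 3 of these 5 organs.

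**Figure D5:**
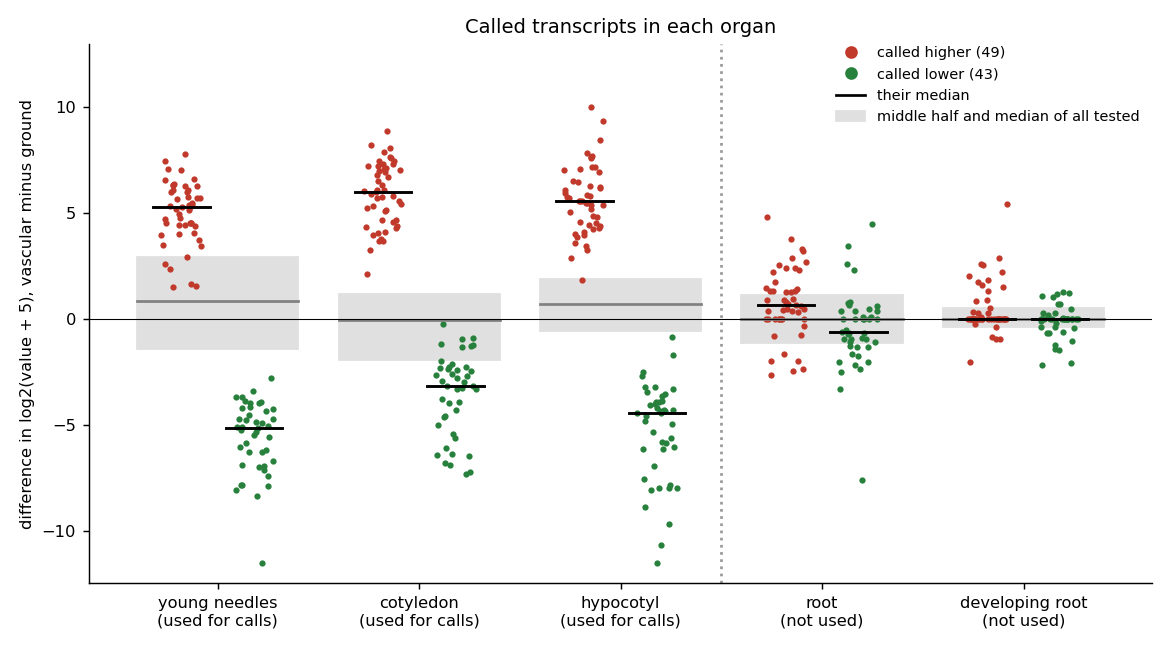
Difference in log2(value + 5), vascular minus ground tissue (y axis), of the 49 transcripts called higher (red) and 43 called lower (green) in each of 5 organs (x axis), with their medians (black) and the interquartile range and median of all transcripts tested (grey). In root, which was not used for the calls, the medians are 0.65 and -0.63, and in developing root both are 0.

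Other tests on the recovered reads overlapped with these calls unequally. The quasi-likelihood test of edgeR with organ as a term called 37 of 7293 (0.507%; 24 higher, 0.329%, and 13 lower, 0.178%), all among the 92, or 40.2% of them. DESeq2 called 521 (7.14%; 316 higher, 4.33%, and 205 lower, 2.81%), which included 90 of the 92 (97.8% of the limma calls and 17.3% of the DESeq2 calls). The fit of all 10 vascular and ground tissue libraries called 82 for the shoot contrast, 62 of them among the 92.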

How the data were processed

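Laser-microdissected tissues of pine seedlings were sequenced as 1 library each. The deposited table holds a normalised signal, which the authors made; per the submitters' processing notes the tools include FastQC, BWA and edgeR, with no versions. The reference assembly and any filter on low transcripts are not given in the sources used here. It has 23493 transcripts in 14 columns, and every value was a whole multiple (within 0.001) of what 1 read is worth, so whole reads were recovered (100% of values, 12128688 reads). Trimmed mean factors recomputed from them matched the deposited scaling to a relative 5.22e-10. The planned test for plain CPM was kept for this scaled signal.

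Vascular and ground tissue were grouped by label and paired by organ. limma 3.58.1 in R 4.3.3 was run on log2(value + 5), with its prior variance following the mean level, for transcripts that reached 10 in 3 or more of the 6 libraries; fold changes on this scale understate those of low transcripts. The fit leaves 2 residual degrees of freedom per transcript, and the prior adds 56.5 pooled over transcripts. An exact permutation test over 3 pairs cannot give a two-sided p under 0.25 and was not used. Alternatives used edgeR 4.0.16, DESeq2 1.42.0, other scalings, filters, pseudocounts and libraries. The fit was also tested on simulated data. At the spread estimated from these libraries it recovered few of the changes put in, 2 of 92 at 16-fold and 9 of 87 at 64-fold. At a dispersion of 0.187, against the 1.87 estimated here, it recovered all that were tested, with 11 false calls. That second run says nothing of recovery at the spread of these libraries. Named transcripts are the 2 with the largest fold change in each direction among calls that differ by 2-fold or more in all 3 organs without overlap of the groups. The libraries, lists and rules were chosen with earlier results of these data known.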

Additional observations from a re-analysis of the deposited data

Results flagged for a closer look

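Of the 4 named transcripts, 3 also had more than 3 reads in libraries that enter none of the comparisons, which is why these values are listed. unigene29570 stood at 138 in the apical meristem. unigene18376 stood at 715 in the pith, 73.1 in the apical meristem and 29.1 in emerging needles. isotig04217 stood at 2528 in the apical meristem, 310 in the pith, 137 in emerging needles and 5.21 in the root meristem. Each is a single library with no replicate, and whether reads of cotyledon mesophyll in the pith, or of hypocotyl cortex in the apical meristem, add to these values was not tested. Groups of 3 libraries are too small for a check of single values far from the others, and none was made.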

How the results depend on the processing

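The count of 92 fell to 31 with 1 added before the logarithm, 46 with a filter at 25, 43 with the library total, 51 with DESeq2 size factors, 32 without the organ term, 33 without the 10 most abundant transcripts of each library and 37 with edgeR, and was 521 with DESeq2. It ran from 4 to 54 with 1 organ left out and the filter remade (4 without the hypocotyl, 46 without young needles, 54 without cotyledons). The fit has organ as a term, so leaving out 1 library of a pair takes its partner out of the contrast too. Settings added after the data were seen gave 9 (limma) and 3 (edgeR) without the hypocotyl on the same transcripts, 0 with edgeR and the filter remade (57 at an unadjusted p under 0.05), and 46 with edgeR after the young needle floor was removed. It stayed within 1.5 times of 92 with 25 added (95), no filter (97), quantile normalisation (130), a constant prior variance (82) and the fit of 10 libraries (82). Members changed more than the count: in the same order, 86, 84, 81, 70 and 62 of these calls were among the 92. Prior degrees of freedom were infinite in the first 3 of these settings, whose SEs hold pooled variance only, and 30.8 and 15.2 in the others. In limma settings with fewer calls and all organs kept they ran from 15.2 (filter at 25) to 28.2 (library total). The part of the prior in the counts was not tested.

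The 1079 transcripts at least 2-fold apart, with 1 direction over the 3 organs, became 509 with 25 added, 450 at 4-fold, and 1618 to 2773 with 2 organs in place of 3, which asks less. The share of calls with the same direction on the mean of root and developing root was 64.1%. It was 50.0% of the 4 calls made without the hypocotyl and 55.6% of the 9 on the same transcripts. The interaction called 0 with and without the hypocotyl. unigene29570 and unigene17168 were not tested where an organ was left out and the filter remade, since they lack reads in ground tissue. Depth limits hypocotyl cortex most, where 3 reads are worth 11.3.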
